A study of Mus musculus with 9 samples.

Results

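The 10 genes described here encode enzymes that act against Polycomb repression on chromatin, and a cofactor. They are Kmt2a, Kmt2b, Kmt2c and Kmt2d, which methylate lysine 4 of histone H3, Crebbp and Ep300, which acetylate lysine 27, Kdm6b, which removes methyl groups from lysine 27, Nsd1 and Nsd2, which methylate lysine 36, and Asxl1, a chromatin cofactor. They were taken by name as a functional group, by a rule that uses no measured value, though earlier results of these data were known when the group was chosen. All 10 are among the 56980 gene identifiers of the count table and among the 17001 genes that passed the filter on low counts. The study sequenced poly(A) RNA of mouse oligodendrocyte progenitor cells (OPCs) in 9 libraries; in the brain these cells divide and give rise to the oligodendrocytes that make myelin. Every library carried the genotype Trp53 -/-, and every culture was a mutant primary OPC line grown with PDGF-AA at 10 ng/mL.

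The groups held 3 libraries each. BB-p53n EZH2i cells expressed the growth factor PDGF-BB and were exposed for 48 hours to 5 µM tazemetostat, an inhibitor of the H3K27 methyltransferase EZH2. BB-p53n DMSO cells expressed PDGF-BB and received the vehicle. The p53n cells were labelled as controls and had neither PDGF-BB expression nor, per the labels, vehicle. PDGF-BB, vehicle and differences between lines therefore cannot be told apart in their comparison. Separate cultures or animals behind the 3 libraries of a group are not stated, so the p-values rest on a spread between libraries that may be technical only. The sources used here give neither the number of lines behind each group nor the way PDGF-BB was expressed. BB-p53n EZH2i against BB-p53n DMSO is called the tazemetostat comparison below, and BB-p53n DMSO against p53n the PDGF-BB comparison.

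Trithorax and Polycomb proteins were first described in Drosophila as opposing regulators that keep genes on or off. Polycomb repressive complex 2 (PRC2), with EZH2 as its usual catalytic subunit, places methyl groups on H3K27. The same lysine cannot be methylated and acetylated at once, so acetylation by CBP (Crebbp) and p300 (Ep300) and methylation by PRC2 exclude each other on 1 histone tail. KMT2 enzymes mark promoters and enhancers at H3K4. Methylation of H3K36 by NSD enzymes hinders PRC2 on the same tail.

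Total counts were 19471768 to 25008897 in BB-p53n EZH2i, 32727333 to 34557109 in BB-p53n DMSO and 22628267 to 27979456 in p53n. Levels are given as CPM, which divides each count by the TMM-adjusted size of its library. Ezh2 itself had 107 to 116 CPM in BB-p53n EZH2i, 170 to 173 CPM in BB-p53n DMSO and 110 to 116 CPM in p53n. Trp53 still drew 12.99 to 15.2 CPM in BB-p53n EZH2i, 12.02 to 14.9 CPM in BB-p53n DMSO and 6.77 to 8.33 CPM in p53n, and as the labels do not name the deleted exons its reads do not check the genotype. Endogenous Pdgfb had 13, 16 and 1 counts over the BB-p53n EZH2i, BB-p53n DMSO and p53n libraries, too few to check PDGF-BB expression. The lines also differed outside their labels. Xist, the transcript that marks an inactive X chromosome, had 2.82 to 17.4 CPM in BB-p53n EZH2i and 46.2 to 65.0 CPM in BB-p53n DMSO, against 2777 to 3101 CPM in p53n, and the Y-linked Uty averaged 4.34 CPM in BB-p53n EZH2i, 24.3 CPM in BB-p53n DMSO and 0.325 CPM in p53n. Of the OPC markers, all 7 exceeded 1 CPM in every group and summed to 4606 to 4911 CPM in BB-p53n EZH2i, 6083 to 6128 CPM in BB-p53n DMSO and 6127 to 6530 CPM in p53n, but single markers moved in opposite directions. Sox10, a defining factor of the oligodendrocyte lineage, averaged 459 CPM in BB-p53n EZH2i, 299 CPM in BB-p53n DMSO and 2.21 CPM in p53n, and Cspg4, Olig1 and Olig2 also had their highest mean in BB-p53n EZH2i and their lowest in p53n. Ptprz1 averaged 625 CPM in BB-p53n EZH2i, 2308 CPM in BB-p53n DMSO and 2684 CPM in p53n, and Pdgfra and Lhfpl3 likewise had their lowest mean in BB-p53n EZH2i and their highest in p53n, with 514 and 61.6 CPM in BB-p53n EZH2i, 980.4 and 191 CPM in BB-p53n DMSO, and 1492 and 379 CPM in p53n. Astrocyte markers, of which Aqp4 had 0 counts in BB-p53n EZH2i, summed to 12.8 to 20.6 CPM in BB-p53n EZH2i, 34.4 to 37.4 CPM in BB-p53n DMSO and 136 to 189 CPM in p53n, and markers of microglia, endothelial cells and mural cells to at most 3.25 CPM in any library. Markers of differentiating oligodendrocytes summed to 9.99 to 13.6 CPM in BB-p53n EZH2i, 16.1 to 20.5 CPM in BB-p53n DMSO and 138 to 162 CPM in p53n. Those of neurons summed to 115 to 127 CPM in BB-p53n EZH2i, 94.2 to 96.6 CPM in BB-p53n DMSO and 100 to 118 CPM in p53n. Mitochondrial genes took 1.34% to 1.54% of counts in BB-p53n EZH2i, 2.44% to 2.62% in BB-p53n DMSO and 4.46% to 5.76% in p53n, with no overlap between groups. The part of these differences between groups in the results below was not tested. Because Xist, Uty and Sox10 separate p53n from the PDGF-BB lines, line and PDGF-BB cannot be told apart for any gene in the PDGF-BB comparison. In bulk RNA, fewer cells that express a gene and less RNA per cell cannot be told apart.

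Of the 4 paralog pairs among the 10 genes, Kmt2c and Kmt2d, which share the work of enhancer H3K4 methylation, had the widest spread of their ratio over the groups in scaled counts. They did not once the joint trend on GC content and exon length, described below, was removed. The windows around their transcription starts, from 250 bases upstream to 50 bases downstream, are printed because both hold more CpG dinucleotides than most mouse promoters, the feature of the promoters at which the CXXC domains of Kmt2a and Kmt2b bind unmethylated DNA. They are RefSeq sequences of GRCm38.p6 on the minus strand, at chr15:98871156-98871455 for Kmt2d and chr5:25498734-25499033 for Kmt2c, written 5′ to 3′ with each CpG in capitals.
Kmt2d: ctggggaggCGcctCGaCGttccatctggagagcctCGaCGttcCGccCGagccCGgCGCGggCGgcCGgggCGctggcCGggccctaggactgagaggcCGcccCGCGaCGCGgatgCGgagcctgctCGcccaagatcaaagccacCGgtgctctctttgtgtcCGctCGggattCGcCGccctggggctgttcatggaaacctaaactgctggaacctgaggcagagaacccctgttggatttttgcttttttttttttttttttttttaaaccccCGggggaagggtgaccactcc
Kmt2c: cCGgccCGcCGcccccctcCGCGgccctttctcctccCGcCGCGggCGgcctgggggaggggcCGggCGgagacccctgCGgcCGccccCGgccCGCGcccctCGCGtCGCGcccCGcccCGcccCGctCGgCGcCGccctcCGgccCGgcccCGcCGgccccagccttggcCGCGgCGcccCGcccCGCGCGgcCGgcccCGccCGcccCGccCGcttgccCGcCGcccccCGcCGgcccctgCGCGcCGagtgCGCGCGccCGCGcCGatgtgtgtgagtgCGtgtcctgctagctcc
The Kmt2d window holds 27 CpGs and the Kmt2c window 56, against a median of 7 over 32851 mouse promoter windows. The table held windows for 6 of the 10 genes (Kmt2a, Kmt2c, Kmt2d, Crebbp, Ep300 and Asxl1), with 13 CpGs in Asxl1 as the lowest number. Fewer CpGs were present in 99.8% of all windows than in that of Kmt2c, in 99.0% than in that of Crebbp, in 84.5% than in that of Kmt2d, and in 62.1% than in that of Asxl1. An E2F-type motif, TTCCCGCC, searched on both strands, was found in 1 of the 6 windows, that of Asxl1, and in 2.19% of all windows. The ETS-type motif CCGGAAGT was found in 0 of the 6 and in 3.89% of all windows.

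The 10 genes are long. Their exons together span 6.954 kb in Kdm6b to 20.291 kb in Kmt2c, and 8 of them lie at percentiles of exon length from 87.9 to 99.2 among 12786 genes with an average log2 CPM above 1 and a known GC content. By GC content of the longest transcript they spread widely, with 41.4% in Nsd2, 46.5% in Nsd1, 47.6% in Kmt2c and 50.6% to 51.7% in Kmt2a, Ep300, Crebbp and Asxl1, and with 58.4% in Kmt2d, 59.1% in Kmt2b and 59.6% in Kdm6b. Length and GC content matter here because, over all genes, the change with tazemetostat followed both. Genes of the longest decile, from 10.28 kb upward, had a median log2 fold change of -0.97 in the tazemetostat comparison, and genes of the shortest decile one of 0.61. Genes of the lowest decile of GC content had a median of -1.41, and those of the highest decile 0.83. The same medians in the PDGF-BB comparison were -0.04 and 0.20 for length and -0.26 and 0.20 for GC content. Fold changes are therefore given from the scaled counts and also after the joint trend on GC content and exon length was removed from each library, which brought the median of the longest decile to -0.05 and that of genes lowest in GC content to -0.04 in the tazemetostat comparison. Whether the trend is technical or biological was not tested.

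**Figure D1:**
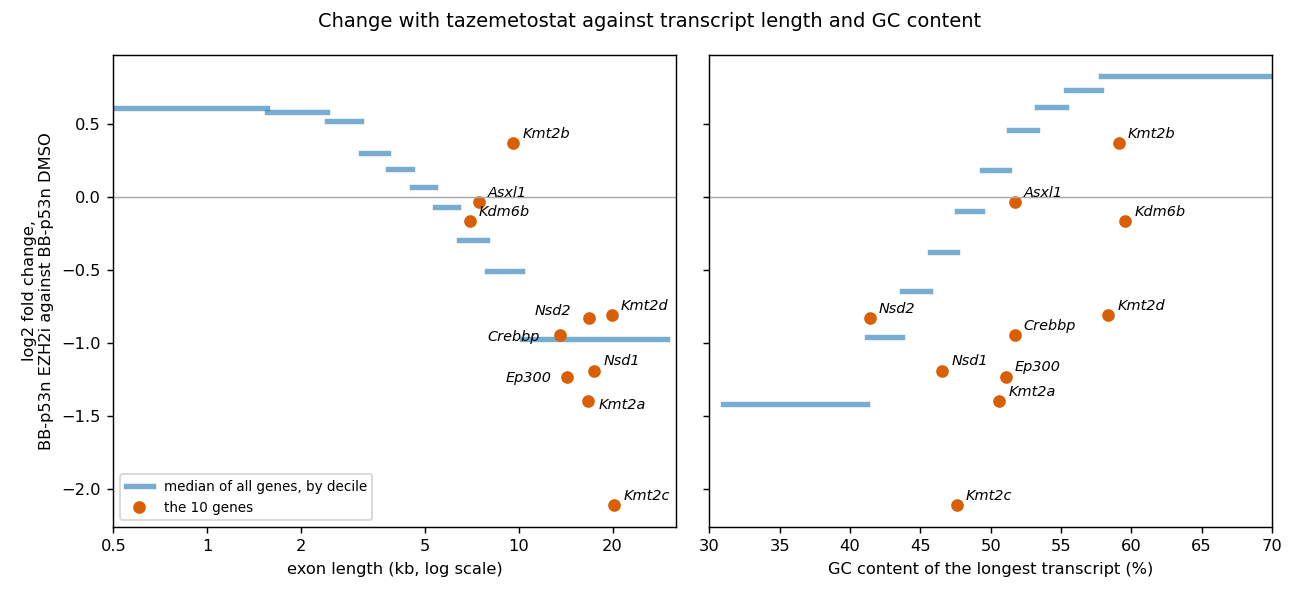
Log2 fold change of BB-p53n EZH2i against BB-p53n DMSO (vertical axis) by exon length in kb on a log scale (left) and by GC content in percent (right). Blue bars are medians of all genes in deciles of each property, with the outermost bars cut at the axis limits; orange points are the 10 genes. Kmt2c at -2.11 lies below the medians on both axes, and Kmt2b at 0.37 lies above the median for its length and below that for its GC content.

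Of the KMT2 genes, 3 of 4 were called lower with tazemetostat, where 35.6% of all tested genes were. With the trend on exon length alone removed 2 were called lower and 2 higher, and the shares of all genes in that fit are not given here. Kmt2a, also known as MLL1 and needed for HOX gene expression, lies at chr9:44714652-44792594 on the minus strand (GRCm39, as all gene coordinates here). It had 117, 136 and 118 CPM in BB-p53n EZH2i, 321, 317 and 340 CPM in BB-p53n DMSO, and 215, 237 and 222 CPM in p53n. The groups did not overlap, with BB-p53n DMSO highest and BB-p53n EZH2i lowest. By edgeR's quasi-likelihood test with Benjamini-Hochberg adjustment, used for all adjusted p-values of genes here, its log2 fold change was -1.40 ± 0.07 (SE) in the tazemetostat comparison (adjusted p = 1.48e-12) and 0.54 ± 0.07 in the PDGF-BB comparison (adjusted p = 8.65e-07). After removal of the trend these values were -0.90 ± 0.06 and 0.44 ± 0.06, and both calls stood in all 23 alternative fits.

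Kmt2b, the closest paralog of Kmt2a, lies at chr7:30268283-30288151 on the minus strand. It had 129, 144 and 145 CPM in BB-p53n EZH2i, 105, 112 and 106 CPM in BB-p53n DMSO, and 92.4, 97.7 and 82.2 CPM in p53n. This was the only one of the 10 genes whose scaled level rose with tazemetostat, with a log2 fold change of 0.37 ± 0.07 in edgeR's quasi-likelihood test (adjusted p = 0.000154), but without the trend the value was -0.03 ± 0.06 (adjusted p = 0.684). In the PDGF-BB comparison it was higher by 0.25 ± 0.07 on the log2 scale (adjusted p = 0.00564), and without the trend by 0.13 ± 0.06 (adjusted p = 0.0425), and this call was lost in 4 of the 23 alternative fits, upper-quartile scaling among them.

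Kmt2c (MLL3), at chr5:25476796-25703781 on the minus strand, showed the lowest fold change of the 10. Its levels were 54.3, 54.8 and 51.7 CPM in BB-p53n EZH2i, 232, 226 and 235 CPM in BB-p53n DMSO, and 226, 263 and 240 CPM in p53n. The BB-p53n EZH2i libraries lay far below the others, and the BB-p53n DMSO and p53n libraries overlapped. The level in BB-p53n EZH2i was 4.31-fold lower than in BB-p53n DMSO, a log2 fold change of -2.11 ± 0.07 (adjusted p = 7.33e-15), and 2.13-fold lower without the trend (-1.09 ± 0.06, adjusted p = 2.49e-12). Between BB-p53n DMSO and p53n the log2 fold change was -0.07 ± 0.07 (adjusted p = 0.346), or -0.11 ± 0.05 without the trend (adjusted p = 0.0848).

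Kmt2d (MLL4), the paralog of Kmt2c, lies at chr15:98729550-98769085 on the minus strand. It had 216, 186 and 190 CPM in BB-p53n EZH2i, 350, 337 and 352 CPM in BB-p53n DMSO, and 158, 181 and 154 CPM in p53n. The BB-p53n DMSO libraries stood above both other groups, and BB-p53n EZH2i stood above p53n by a small gap. Kmt2d was 2.11-fold higher in the PDGF-BB comparison, the largest rise of the 10 genes in that comparison (log2 fold change 1.07 ± 0.07, adjusted p = 6.56e-11), and 1.05 ± 0.07 without the trend. With tazemetostat it fell by 0.81 ± 0.07 on the log2 scale (adjusted p = 5.15e-09), or by 0.69 ± 0.07 without the trend, but the value turned to 0.47 (adjusted p = 4.56e-06) when the trend on exon length alone was removed.

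The acetyltransferase genes shared 1 pattern. Crebbp, at chr16:3899192-4031861 on the minus strand, had 80.3, 69.3 and 71.2 CPM in BB-p53n EZH2i, 142.0, 141.6 and 142.3 CPM in BB-p53n DMSO, and 95.7, 115 and 102 CPM in p53n. Ep300, at chr15:81469552-81536278 on the plus strand, had 137, 144 and 140 CPM in BB-p53n EZH2i, 329, 320 and 337 CPM in BB-p53n DMSO, and 254, 277 and 245 CPM in p53n. For both genes the groups did not overlap and BB-p53n DMSO was highest. Crebbp changed by -0.95 ± 0.08 with tazemetostat (adjusted p = 9.61e-10) and by 0.45 ± 0.08 in the PDGF-BB comparison (adjusted p = 2.39e-05), and Ep300 by -1.23 ± 0.07 (adjusted p = 2.58e-12) and 0.35 ± 0.06 (adjusted p = 7.1e-05), all as log2 fold changes. Without the trend Crebbp gave -0.72 ± 0.07 and 0.33 ± 0.06 and Ep300 gave -0.90 ± 0.05 and 0.23 ± 0.05, all called. With the trend on exon length alone removed, the Crebbp value with tazemetostat was -0.04 (adjusted p = 0.631), while that of Ep300 was still called at -0.27 (adjusted p = 0.00334).

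Kdm6b (JMJD3), an H3K27 demethylase that opposes PRC2 directly, lies at chr11:69289334-69304501 on the minus strand, 166.684 kb from Trp53. It had 77.6, 70.3 and 77.4 CPM in BB-p53n EZH2i, 85.2, 82.7 and 85.3 CPM in BB-p53n DMSO, and 86.5, 94.8 and 79.0 CPM in p53n. The BB-p53n EZH2i libraries lay below those of BB-p53n DMSO, but the log2 fold change of -0.17 ± 0.08 missed the threshold (adjusted p = 0.0513), though 15 of the 23 alternative fits called it lower, and without the trend it was -0.73 ± 0.06 (adjusted p = 3.25e-09). BB-p53n DMSO and p53n overlapped, at -0.04 ± 0.07 (adjusted p = 0.649), or -0.18 ± 0.06 without the trend (adjusted p = 0.0163). In that comparison the 1301 genes of chromosome 11 had a median log2 fold change of 0.38, against -0.05 over the other autosomes, and with tazemetostat one of 0.33, against 0.0053. Chromosomes of other members also stood apart with tazemetostat, with medians of 0.32 on chromosome 7 (Kmt2b), 0.35 on chromosome 15 (Kmt2d and Ep300), -0.13 on chromosome 16 (Crebbp) and -0.41 on chromosome 13 (Nsd1), and in the PDGF-BB comparison chromosomes 13 and 16 had medians of -0.18 and -0.19. The part of these shifts in the members' values was not tested.

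The H3K36 methyltransferase genes moved in opposite directions in the PDGF-BB comparison. Nsd1, at chr13:55357595-55466138 on the plus strand, had 139, 130 and 137 CPM in BB-p53n EZH2i, 308, 304 and 311 CPM in BB-p53n DMSO, and 371, 395 and 389 CPM in p53n. It was lowest in BB-p53n EZH2i and highest in p53n with no overlap, and was the only one of the 10 genes called lower in the PDGF-BB comparison (log2 fold change -0.32 ± 0.06, adjusted p = 8.78e-05; -0.35 ± 0.05 without the trend). Its fall with tazemetostat of -1.19 ± 0.06 (adjusted p = 2.09e-12) shrank to -0.16 ± 0.05 without the trend (adjusted p = 0.0134), and it was called in 2 of 5 ways of removing the trend.

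Nsd2, the gene of an H3K36 dimethylase known for its translocation and mutation in blood cancers, lies at chr5:33978069-34055319 on the plus strand. It had 274, 278 and 265 CPM in BB-p53n EZH2i, 492, 476 and 483 CPM in BB-p53n DMSO, and 315, 324 and 330 CPM in p53n. In BB-p53n DMSO it rose by 0.58 ± 0.06 on the log2 scale against p53n (adjusted p = 3.17e-08), or 0.78 ± 0.08 without the trend, and this call stood in all 23 alternative fits. With tazemetostat the sign depended on the trend. Scaled counts gave -0.83 ± 0.06 (adjusted p = 2.07e-10), and removal of the trend gave 0.85 ± 0.08 (adjusted p = 1.06e-08), with values from 0.28 to 0.85, all called higher, in the 5 ways of removing it. The longest Nsd2 transcript has the lowest GC content of the 10 genes and spans 7786 of its 16803 exon bases, and with the mean GC content over its transcripts, 45.8%, the value was 0.41.

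Asxl1, a cofactor of the histone H2A deubiquitinase Bap1 and a homolog of Drosophila Additional sex combs, lies at chr2:153187749-153245927 on the plus strand. It had 131, 147 and 131 CPM in BB-p53n EZH2i, 129, 145 and 145 CPM in BB-p53n DMSO, and 108.2, 118.2 and 105.1 CPM in p53n. The groups of the tazemetostat comparison overlapped, and the log2 fold change was -0.04 ± 0.07 (adjusted p = 0.665), or -0.16 ± 0.06 without the trend (adjusted p = 0.0256), where other ways of removing the trend gave values up to 0.37. Against p53n the BB-p53n DMSO libraries were higher by 0.34 ± 0.07 on the log2 scale (adjusted p = 0.000374), or 0.18 ± 0.06 without the trend.

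**Figure D2:**
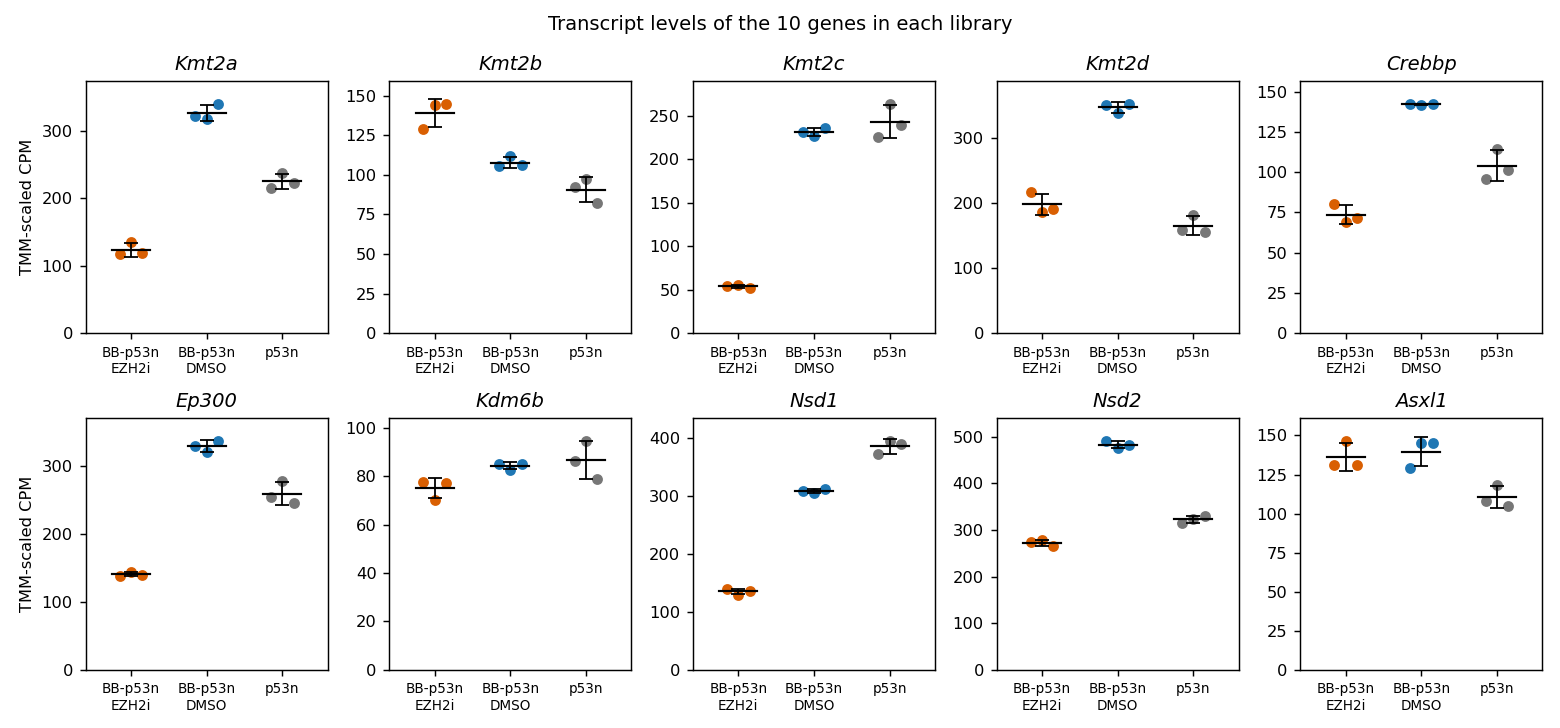
Transcript level of each gene in TMM-scaled CPM (vertical axes start at 0) in the 9 libraries. Points are libraries, horizontal bars are means and error bars are SD of 3 libraries; in 6 panels (Kmt2a, Kmt2d, Crebbp, Ep300, Nsd2 and, with overlap, Asxl1) the mean of BB-p53n DMSO is the highest of the groups.

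Taken as a group, 1 of the 10 genes was called higher and 7 were called lower in the tazemetostat comparison, where 37.3% of all tested genes were called higher and 35.6% lower. Their median log2 fold change was -0.89, against 0.02 over all genes, and 9 of the 10 did not overlap between the groups, against 75.3% of all genes. Without the trend 1 was called higher and 8 lower, where the shares of all genes were 28.6% and 28.9%, and the medians were -0.71 and -0.01. With the trend on exon length alone removed 4 were called higher and 3 lower, with Kmt2d turned to 0.47 and Crebbp and Nsd1 no longer called. The shares of all genes called are not given for that fit, so its counts have no background beside them. The median of the 10 in that fit was 0.07, against 0.05 over all genes. It was -1.09 with GC content alone, -0.29 with the mean GC content over transcripts and -0.48 with the length of the longest transcript. The gene called higher changed with the trend, Kmt2b in the scaled counts and Nsd2 after its removal. Kmt2a, Kmt2c and Ep300 were called lower in all 23 alternative fits.

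In the PDGF-BB comparison, 7 of the 10 were called higher and 1 lower, where 35.3% of all tested genes were called higher and 34% lower. The median of the 10 was 0.34, against -0.02 over all genes, and 8 of the 10 did not overlap, against 76.1% of all genes. Without the trend 7 were called higher and 2 lower, where 32.9% and 38.6% of all genes were called, and the medians were 0.21 and -0.09. Kmt2a, Kmt2d, Crebbp, Ep300 and Nsd2 were called higher, and Nsd1 lower, in all 23 alternative fits. Set directly against p53n, a comparison the study does not name and that shares libraries with both others, BB-p53n EZH2i had 3 of the 10 called higher and 7 lower (40.3% and 41.7% of all genes), or 2 and 6 without the trend (36% and 42.2%). Kmt2d was among those higher, at 0.26 ± 0.07 on the log2 scale and 0.35 ± 0.07 without the trend, but at -0.60 (called lower) with the trend on GC content alone removed and at 1.63 with that on exon length alone, and Kmt2c among those lower, at -2.18 ± 0.07 and -1.20 ± 0.06.

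**Figure D3:**
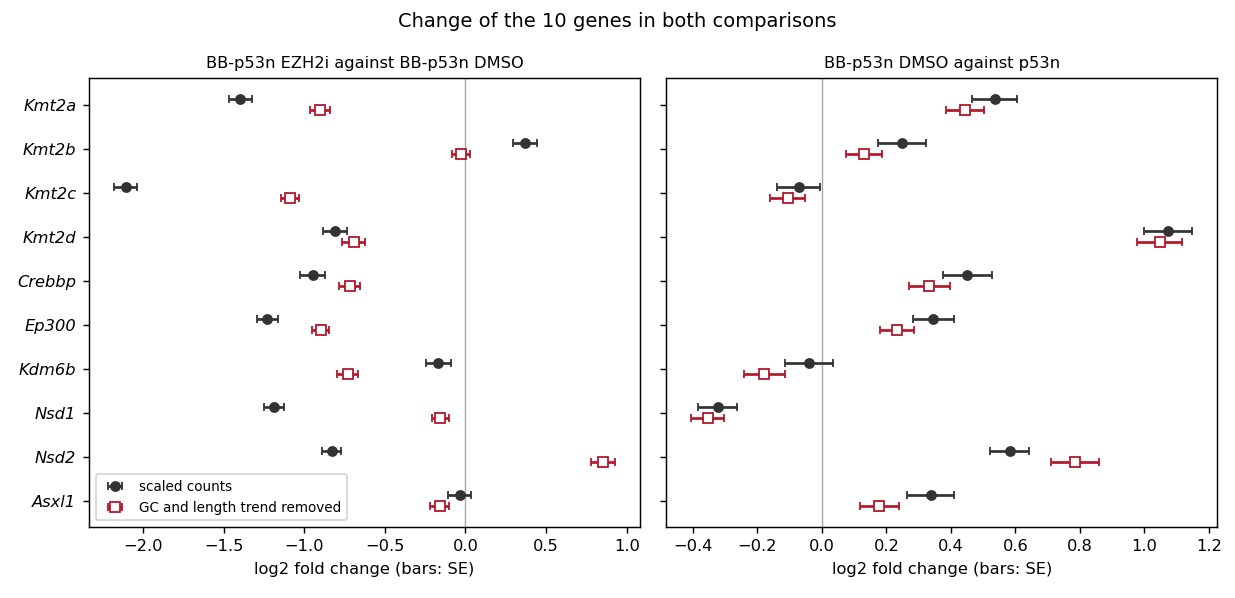
Log2 fold change of the 10 genes in BB-p53n EZH2i against BB-p53n DMSO (left) and in BB-p53n DMSO against p53n (right), with SE bars. Filled circles are scaled counts and open squares are values after the trend on GC content and exon length was removed; the Nsd2 value with tazemetostat lies at -0.83 as a circle and at 0.85 as a square, while in the right panel the symbols of each gene lie on the same side of 0.

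**Figure D4:**
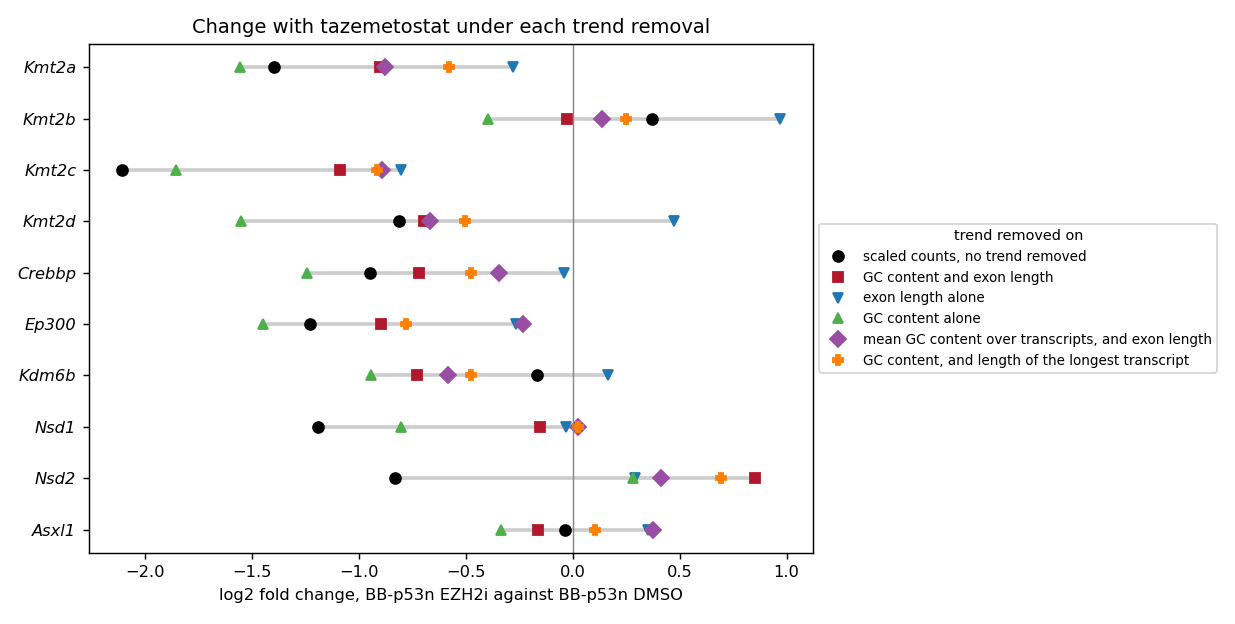
Log2 fold change of BB-p53n EZH2i against BB-p53n DMSO for each gene from scaled counts (black circles) and under 5 ways of removing the trend (coloured symbols), joined by a grey line from the lowest to the highest value. All 6 values of Kmt2a, Kmt2c and Ep300 lie below 0, and Kmt2d crosses 0 when exon length alone is used.

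Paralogs differed in how much of their joint output each supplied. Ratios were formed within each library from CPM per kb of exon, so that library size drops out. Their level still depends on GC content and on the exon length used, here the union of exons of all transcripts. The longest transcript spans 12784 of the 17483 exon bases of Nsd1 and 7786 of the 16803 of Nsd2. The side of 0 of their ratio in p53n therefore depends on the length chosen. Kmt2c to Kmt2d had a mean log2 ratio of -1.90 ± 0.12 in BB-p53n EZH2i, -0.61 ± 0.01 in BB-p53n DMSO and 0.54 ± 0.06 in p53n (SD, n = 3 libraries each). By CPM per kb of exon, the higher paralog thus changed between p53n and the PDGF-BB lines. Kmt2a to Kmt2b had -0.97 ± 0.11 in BB-p53n EZH2i, 0.80 ± 0.09 in BB-p53n DMSO and 0.51 ± 0.11 in p53n. The ratio of Nsd1 to Nsd2 was -1.07 ± 0.08 in BB-p53n EZH2i, -0.71 ± 0.02 in BB-p53n DMSO and 0.20 ± 0.03 in p53n. That of Crebbp to Ep300 was -0.86 ± 0.14 in BB-p53n EZH2i, -1.14 ± 0.03 in BB-p53n DMSO and -1.24 ± 0.08 in p53n, so Ep300 exceeded Crebbp per kb in every library.

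None of the 8 ratio comparisons overlapped between its groups. Of all tested genes taken singly, 75.3% did not overlap in the tazemetostat comparison and 76.1% in the PDGF-BB comparison. No such share was formed over other gene pairs, so the 8 have no background of their own kind. An exact two-sided permutation test gave p = 0.1 for each of the 8, the smallest that 3 against 3 libraries allow. It stayed at 0.1 after Benjamini-Hochberg adjustment over the 8, so the design could not pass the threshold. The difference in the Kmt2c to Kmt2d ratio was -1.15 in the PDGF-BB comparison with and without the trend, and -1.30 in the tazemetostat comparison, or -0.39 without the trend. For Kmt2a to Kmt2b the difference with tazemetostat was -1.77, or -0.87 without the trend, and for Nsd1 to Nsd2 -0.36, or -0.9996 without it. In the PDGF-BB comparison the Nsd1 to Nsd2 difference was -0.90, or -1.14 without the trend. This ratio had the widest spread over the groups once the joint trend was removed. That order did not hold with exon length alone. There the log2 fold changes of BB-p53n EZH2i against p53n were -0.79 for Kmt2c and 1.63 for Kmt2d, and -0.29 for Nsd1 and 0.93 for Nsd2. No ratio difference changed sign when the joint trend was removed.

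**Figure D5:**
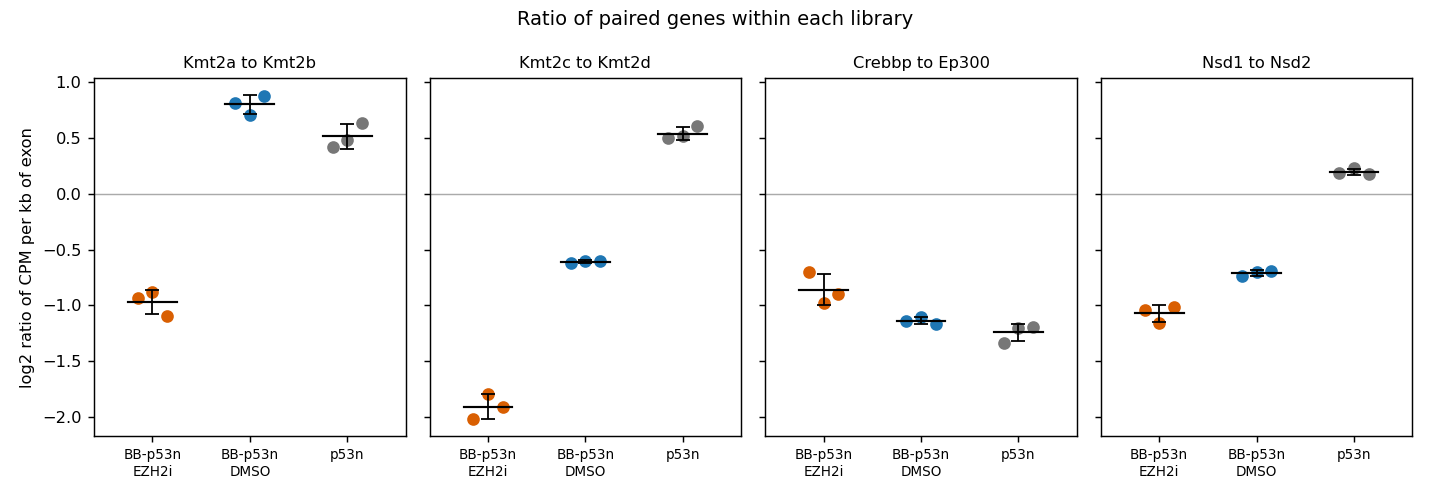
Log2 ratio of CPM per kb of exon between paired genes in each of the 9 libraries. The length is the union of exons of all transcripts, and the side of 0 on which a ratio lies depends on it. Points are libraries, horizontal bars are means and error bars are SD of 3 libraries; Kmt2c to Kmt2d and Nsd1 to Nsd2 lie above 0 in p53n and below 0 in both PDGF-BB groups, and Kmt2a to Kmt2b lies below 0 in BB-p53n EZH2i alone.

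Per kb of exon, the order of the 10 genes changed between groups. In BB-p53n EZH2i, Asxl1 led with 18.3 ± 1.21 CPM per kb (SD, n = 3), ahead of Nsd2 with 16.2 ± 0.384 and Kmt2b with 14.5 ± 0.928, and Kmt2c was last with 2.64 ± 0.0813. Kmt2d with 9.90 ± 0.813 and Ep300 with 9.83 ± 0.216 CPM per kb did not differ beyond their spread there, nor did Nsd1 with 7.72 ± 0.275 and Kmt2a with 7.42 ± 0.621. In BB-p53n DMSO, Nsd2 led with 28.8 ± 0.478 CPM per kb, ahead of Ep300 with 23.0 ± 0.577 and Kmt2a with 19.5 ± 0.730, and Crebbp was last with 10.49 ± 0.0247. In p53n, Nsd1 led with 22.0 ± 0.708 CPM per kb, Nsd2 with 19.2 ± 0.470 and Ep300 with 18.1 ± 1.17 followed and did not differ beyond their spread, and Crebbp was last with 7.68 ± 0.713. Exon length here is the union of exons of all transcripts, which understates the level of a gene that uses only some of them.

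Reads of these genes overlap little with those of others. Opposite-strand genes share 4.11% of the exon bases of Kdm6b (Kdm6bos, 3 to 28 counts per library), 3.83% of Asxl1 (2500004C02Rik, 107 to 445 counts), 2.27% of Kmt2a (AC061963.1, 2 to 17 counts), 1.35% of Kmt2c (Gm42585, at most 24 counts) and 0.357% of Nsd2 (Nelfa, 667 to 1657 counts). The counting used no strand option, so strand did not separate reads in those stretches, and whether such reads were left unassigned was not checked. On the same strand, a gene of 54 bases shares 0.378% of the exon bases of Ep300 and had 0 counts.

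The enzymes work in complexes, and 58 partner and counterpart genes in 11 lists were read beside them, of which 57 passed the filter. Pagr1a, a subunit of the Kmt2c and Kmt2d complexes, had 0 counts in all 9 libraries. By counting error alone this allows at most 3 counts, or 0.0888 to 0.160 CPM per library. Whether its reads were left out by the mapping quality threshold or by overlap with other genes was not checked. The 0 counts therefore do not show that Pagr1a was silent. Over the 57, 19 were called higher and 25 lower in the tazemetostat comparison (37.3% and 35.6% of all genes), or 19 and 30 without the trend (28.6% and 28.9%). In the PDGF-BB comparison 21 were called higher and 19 lower (35.3% and 34% of all genes), or 22 and 22 without the trend (32.9% and 38.6%). These shares of all genes apply to every list below, and the gene said to lead a list is the one with the largest called change in scaled counts.

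The shared core of the KMT2 and SET1 complexes, Wdr5, Rbbp5, Ash2l and Dpy30, did not fall with Kmt2a and Kmt2c. With tazemetostat 3 of 4 were called higher, with a median log2 fold change of 0.38, and 4 of 4 without the trend, with 0.64. Wdr5, the scaffold that holds the SET domain, had 149 ± 4.86 CPM in BB-p53n EZH2i and 83.9 ± 6.27 CPM in BB-p53n DMSO (SD, n = 3 each; log2 fold change 0.83 ± 0.07, adjusted p = 2.03e-09), and 0.47 without the trend. All 4 were also called higher in the PDGF-BB comparison, with a median of 0.48, or 0.36 without the trend, led by Dpy30 with 40.2 ± 0.671 CPM in BB-p53n DMSO and 18.2 ± 0.463 CPM in p53n (log2 fold change 1.14 ± 0.08, adjusted p = 8.47e-11; 1.18 without the trend).

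Subunits particular to 1 complex were mixed. Of those of the Kmt2a and Kmt2b complexes, 1 of 4 was called higher and 2 lower with tazemetostat, or 1 and 3 without the trend. Men1, which encodes menin, the adaptor that ties Kmt2a to its targets, rose (0.86 ± 0.07, adjusted p = 1.26e-09), but 3 of the 6 fits with a trend removed did not call it. Psip1, which encodes the chromatin tether LEDGF, fell by 1.65 ± 0.09 on the log2 scale (adjusted p = 1.72e-11), or by 0.80 without the trend. In BB-p53n DMSO, set against p53n, 2 of the 4 were called higher and 0 lower, or 3 and 0 without the trend, led by X-linked Hcfc1 at 1.05 ± 0.07 (adjusted p = 2.97e-11; 0.92 without the trend).

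Of the 3 tested subunits of the Kmt2c and Kmt2d complexes, 0 were called higher and 2 lower with tazemetostat, or 1 and 2 without the trend, and 2 were called higher and 1 lower in the PDGF-BB comparison, with and without the trend. Kdm6a (UTX), an X-linked H3K27 demethylase and the subunit through which these complexes counter PRC2, had 13.8 ± 2.53 CPM in BB-p53n EZH2i, 44.1 ± 3.57 CPM in BB-p53n DMSO and 109.8 ± 2.83 CPM in p53n. In scaled counts it was the called gene with the largest fall of its list in both comparisons, at -1.67 ± 0.10 with tazemetostat (adjusted p = 2.68e-11; -0.60 without the trend) and -1.32 ± 0.09 in the PDGF-BB comparison (adjusted p = 1.2e-10; -1.24 without the trend). Kdm6a escapes X inactivation in mice, and the Xist and Uty values above separate the same groups. Line and PDGF-BB cannot be told apart for it, nor for any other gene of the PDGF-BB comparison. Paxip1 rose in the PDGF-BB comparison by 0.61 ± 0.07 on the log2 scale (adjusted p = 2.53e-07), or by 0.47 without the trend.

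Other H3K4 enzymes and SET1 subunits were split, with 3 of 6 called higher and 2 lower with tazemetostat, or 2 and 4 without the trend. Cxxc1, the CpG-binding SET1 subunit, stood at 0.91 ± 0.07 (adjusted p = 2.32e-10), or 0.16 without the trend, and Bod1l at -2.09 ± 0.15 (adjusted p = 2.98e-07), or -1.18. The PDGF-BB comparison had 2 of the 6 called higher and 2 lower, with and without the trend. They were led by Setd1a at 0.85 ± 0.08 (adjusted p = 1.13e-08; 0.74 without the trend) and Bod1l at -0.47 ± 0.14 (adjusted p = 0.012; -0.51 without the trend), a call lost in 3 of the 23 alternative fits.

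Of the H3K4 demethylases, which undo the mark, 4 of 5 were called lower and 0 higher in the PDGF-BB comparison, where 34% of all genes were called lower, with a median of -0.27. Among the 4 was X-linked Kdm5c, at -0.27, or -0.42 without the trend. Without the trend 5 of 5 were called lower, where 38.6% of all genes were, with a median of -0.42. Kdm5b had 78.7 ± 4.04 CPM in BB-p53n DMSO and 206.7 ± 8.42 CPM in p53n (log2 fold change -1.39 ± 0.08, adjusted p = 5.67e-12; -1.45 without the trend), a fall called in all 23 alternative fits. With tazemetostat 3 of 5 were called lower, or 1 higher and 3 lower without the trend. Kdm5a stood at -1.36 ± 0.07 in scaled counts (adjusted p = 4.01e-12) and at -0.06 without the trend.

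Among 7 other acetyltransferase genes, 4 were called higher and 3 lower with tazemetostat, or 2 and 3 without the trend. Kat6a, an H3 acetyltransferase, fell in all 23 alternative fits, with 128 ± 2.52 CPM in BB-p53n EZH2i and 359 ± 4.53 CPM in BB-p53n DMSO (a log2 fold change of -1.49 ± 0.06, adjusted p = 9.77e-14; -0.99 without the trend). Kat2a (GCN5) stood at 0.78 ± 0.08 (adjusted p = 1.31e-08) but at 0.02 without the trend. The PDGF-BB comparison had 3 of the 7 called higher and 1 lower, or 3 and 3 without the trend, led by Kat2a on chromosome 11 at 1.17 ± 0.08 (adjusted p = 3.7e-11; 1.06 without the trend) and Kat6b at -0.49 ± 0.07 (adjusted p = 3.29e-06; -0.55 without the trend).

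Among the readers of acetylated histones, the tazemetostat comparison put Brd2 at 0.33 ± 0.06 (adjusted p = 5.43e-05), or -0.14 without the trend, and Brd3 at -0.38 ± 0.07 (adjusted p = 5.17e-05), or -0.47. Of the 4 class I histone deacetylases, which remove acetyl groups, 1 was called higher and 1 lower with tazemetostat, or 2 and 0 without the trend. Hdac3 stood at 0.90 ± 0.08 (adjusted p = 1.58e-09), or 1.115 without the trend, and Hdac2 at -0.97 ± 0.07 (adjusted p = 1.55e-10), or -0.07. Only X-linked Hdac8 of the 4 was called in the PDGF-BB comparison, at -1.005 ± 0.11 (adjusted p = 4.8e-08; -0.96 without the trend).

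The other H3K36 methyltransferases Nsd3, Setd2 and Ash1l, a trithorax-group protein, were all called lower with tazemetostat, 3 of 3, with a median of -2.21, or -1.16 without the trend. Setd2, the enzyme of H3K36 trimethylation in transcribed genes, had 38.1 ± 1.03 CPM in BB-p53n EZH2i, 178 ± 13.7 CPM in BB-p53n DMSO and 208 ± 7.95 CPM in p53n. Its log2 fold change with tazemetostat was -2.22 ± 0.07 (adjusted p = 7.18e-15), or -1.24 without the trend, and it was called lower in all 23 alternative fits. Between BB-p53n DMSO and p53n it was -0.23 ± 0.07 (adjusted p = 0.00578; -0.23 without the trend), a call lost in 5 of the 23, and 2 of the 3 genes were called lower there.

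Of 9 H3K36 demethylases and readers, 4 were called higher and 4 lower with tazemetostat, both with and without the trend, but the called genes differed. In scaled counts they were led by Kdm4b at 1.13 ± 0.08 (adjusted p = 1.73e-10; 0.43 without the trend) and Mtf2 at -1.64 ± 0.13 (adjusted p = 5.98e-09; -0.22). Without the trend Morf4l1 at 0.88 and Phf1 at -0.72 had the largest called changes. Their levels were low, with means of 5.55 and 4.40 CPM in BB-p53n EZH2i and 7.63 and 4.24 CPM in BB-p53n DMSO. Phf1 stood at 0.07 in scaled counts and was not called there (adjusted p = 0.786). Morf4l1, at -0.47 in scaled counts, and Kdm4a, at 0.26 in scaled counts and -0.14 without the trend, were called in opposite directions. With PDGF-BB, 3 of the 9 were called higher and 4 lower, or 4 and 3 without the trend. Phf19, a PRC2 accessory subunit that reads H3K36 methylation, had 59.9 ± 1.87 CPM in BB-p53n DMSO and 11.99 ± 1.16 CPM in p53n (log2 fold change 2.32 ± 0.08, adjusted p = 1.69e-15; 2.19 without the trend), and Kdm4b stood at -0.67 ± 0.08 (adjusted p = 3.16e-07; -0.79 without the trend).

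In the ASXL and BAP1 complex, 2 of 8 were called higher and 4 lower with tazemetostat, or 1 and 5 without the trend. Bap1, the deubiquitinase that Asxl1 activates, had 193 ± 19.9 CPM in BB-p53n EZH2i and 97.0 ± 5.28 CPM in BB-p53n DMSO (a log2 fold change of 0.99 ± 0.08, adjusted p = 3.88e-10; 0.50 without the trend). Asxl2, a paralog of Asxl1, stood at -1.81 ± 0.09 (adjusted p = 7.99e-13), or -0.23 without the trend. In the PDGF-BB comparison 3 were called higher and 4 lower, with and without the trend, led by Foxk2 on chromosome 11 at 2.10 ± 0.07 (adjusted p = 1.98e-16; 1.96 without the trend) and X-linked Ogt at -0.93 ± 0.08 (adjusted p = 6.32e-09; -0.88 without the trend).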

How the data were processed

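The deposited file is a table of raw counts, fragments assigned to each gene by the authors. Per the file headers, featureCounts 1.6.3 counted over exons with a mapping quality of at least 20, no strand option and the Ensembl release 108 annotation of GRCm39. Its length column is the union of exons per gene. The submitters' processing notes also name Trimmomatic and Subread, without settings. Per the labels' protocols, 500 ng of total RNA entered each library and 150 bp pairs were read.

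The filter on low counts was filterByExpr in edgeR 4.0.16, run in R 4.3.3. Library sizes were scaled with TMM, and 1 robust quasi-likelihood model was fitted to the 9 libraries, by group alone, with 6 residual degrees of freedom. Adjusted p-values are Benjamini-Hochberg values over 17001 genes, with a threshold of 0.05. A smooth trend of each library on GC content and exon length was estimated with mgcv 1.9.3 in genes with an average log2 CPM above 1 and removed as an offset. GC content came from the longest transcript of each gene in a GENCODE annotation of GRCm38, joined by identifier, and was known for 97.9% of tested genes. The 23 alternatives were other scalings, no filter, DESeq2 1.42.0, the 2 compared groups alone, no sex or mitochondrial chromosomes, other trends, a replicate block and leaving out each library. Counts of libraries of a group differed by more than sampling noise (median chi-square per gene 1.39 to 4.23), so none was merged as 1 library deposited again; this does not show that they came from separate cultures. The scripts were tested on simulated data.

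The members, lists and tests were chosen with earlier results of these data known. All 10 members are named. From each list the text names, for both comparisons, the gene that rose most and the gene that fell most among those called, and Kdm6a and Setd2 always; 1 gene that this rule takes is not reported here. Ezh2, Trp53 and Pdgfb were named as checks of the labels, but their counts do not verify EZH2 inhibition, the deletion or PDGF-BB expression. Xist, Uty, the OPC markers, Morf4l1, Phf1, Kdm4a, Kdm5c and the whole of 2 short lists (those of Wdr5 and Nsd3) were named outside this rule with their values seen. Floors cover counting error only.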

Additional observations from a re-analysis of the deposited data

How the results depend on the processing

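Calls were most stable in BB-p53n DMSO against p53n, where 6 of the 10 genes kept their call in all 23 alternatives, against 3 with tazemetostat and 2 in BB-p53n EZH2i against p53n. Counts of calls in this section show only how the members' calls shift between fits. Except where stated, they have no share of all genes beside them and are not read as results about the 10 genes. When each library was left out, the 10 genes gave 7 called higher and 1 lower in BB-p53n DMSO against p53n, 1 higher and 7 to 8 lower with tazemetostat, and 3 higher and 6 to 7 lower in BB-p53n EZH2i against p53n; the only values to change sign then were of uncalled genes in BB-p53n DMSO against p53n, Kdm6b at -0.033 to 0.040 (above 0 without p53n library 1 or 2) and Kmt2c at -0.071 to 0.0051 (above 0 without p53n library 3). The Kdm6b value with tazemetostat passed the threshold without any 1 p53n library or BB-p53n EZH2i library 1, and its value in BB-p53n EZH2i against p53n lost the call without p53n library 2 or BB-p53n EZH2i library 2. Upper-quartile scaling moved the median of all genes in BB-p53n DMSO against p53n to -0.16, from -0.02 with TMM, which gave 3 of the 10 called lower there, and put Asxl1 at 0.021 with tazemetostat. No filter on low counts put Kdm6b at 0.027, and leaving out chromosomes X, Y and MT put Kdm6b at 0.038 and Kmt2c at 0.0054, in BB-p53n DMSO against p53n.

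With the joint trend on GC content and exon length removed, 2 of the 10 were called lower in BB-p53n DMSO against p53n, Kmt2b was -0.029 and Nsd2 0.85 with tazemetostat, and Nsd2 was 1.64 in BB-p53n EZH2i against p53n. With exon length alone, 4 were called higher and 3 lower with tazemetostat, with Kmt2d at 0.47, Kdm6b at 0.16, Nsd2 at 0.29 and Asxl1 at 0.35; Kmt2c was 0.016 in BB-p53n DMSO against p53n; and in BB-p53n EZH2i against p53n 6 were higher and 2 lower, with Kmt2a at 0.31, Crebbp at 0.43, Ep300 at 0.11, Kdm6b at 0.075 and Nsd2 at 0.93. With GC content alone, 3 were called lower in BB-p53n DMSO against p53n, Kmt2b was -0.40 and Nsd2 0.28 with tazemetostat, and in BB-p53n EZH2i against p53n 1 was higher, with Kmt2b at -0.28, Kmt2d at -0.60, Nsd2 at 1.003 and Asxl1 at -0.17. A pair of further trends was added after the data were seen. With the mean GC content over transcripts, 2 were called higher with tazemetostat, with Nsd1 at 0.026, Nsd2 at 0.41 and Asxl1 at 0.37, and 4 were lower in BB-p53n EZH2i against p53n, with Crebbp at 0.0092, Ep300 at 0.10 and Nsd2 at 1.03. With the length of the longest transcript, 2 were called lower in BB-p53n DMSO against p53n, with Kmt2c at 0.051; 2 were higher with tazemetostat, with Nsd1 at 0.022, Nsd2 at 0.69 and Asxl1 at 0.10; and 4 were lower in BB-p53n EZH2i against p53n, with Kmt2a at 0.045 and Nsd2 at 1.36. Removing a trend leaves only changes relative to genes of like length and GC content, and the cause of the trend was not tested.

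The replicate numbers paired the libraries weakly at most. Deviations of libraries with the same number correlated at -0.08 to 0.12 over genes, over 0.1 in 1 of 9 pairs. In 3 of 9 pairs the first library correlated best with its own number. Between BB-p53n DMSO and BB-p53n EZH2i the values were 0.12, 0.0992 and -0.0122 for numbers 1, 2 and 3. Crossing numbers 1 and 2 there gave -0.119 and -0.109. Whether the numbers mark shared cultures cannot be told from these values. With the replicate block 7 of the 10 were called higher and 1 lower in BB-p53n DMSO against p53n, and no call of the 10 changed; with the block and the joint trend removed, 2 were lower in that comparison, Kmt2b was -0.029 and Nsd2 0.85 with tazemetostat, and Nsd2 was 1.63 in BB-p53n EZH2i against p53n. Ratios of paralogs kept their sign in every alternative in which they were formed. With the mean GC content over transcripts, the single-gene values of Crebbp and Ep300 with tazemetostat were -0.35 and -0.23. That order is opposite to the rise of the Crebbp to Ep300 ratio in scaled counts. Each of the 10 genes had at least 1029 counts in every library, so depth did not limit their values; 3 libraries a group and unknown independence did.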
